A study of Mus musculus with 19 samples.

Results

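The genes described here are 8 genes of the glia that accompany the vomeronasal nerve: Sox10, Mbp, Pmp22, Fabp7, S100b, Npy, Ngfr and Frzb. They were taken by name as glial and myelin genes, by a rule that uses no measured value although earlier results of these data were known. They are 8 of the 35596 genes to which transcripts were assigned. Polyadenylated RNA of whole vomeronasal organs (VNOs) from female mice at postnatal day 21 was sequenced in 18 libraries that the labels place in 6 groups of 3. Each of 2 Cre lines contributed conditional knockouts (cKO, AP-2εCre+/-/Smad4flox/flox or OMPCre+/-/Smad4flox/flox), Cre heterozygotes (AP-2εCre+/- or OMPCre+/-), and controls that the labels call Wild Type and the study's methods and design text describe as Smad4flox/flox, called flox controls here. The Cre is expressed from the Tfap2e locus in immature basal vomeronasal sensory neurons in the first line and from the Omp locus in mature apical and basal neurons in the other, so heterozygotes and cKO carry Cre in an allele of the host gene and flox controls do not. The labels name neuron types as the cell type, but the RNA came from the whole organ, with its glia, glands, vessels, cartilage and connective tissue. The question for the glial genes was their level in each group and whether it differed where Smad4 was deleted in the neurons.

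Axons of vomeronasal neurons leave the epithelium in bundles wrapped by olfactory ensheathing glia, neural crest-derived cells that resemble non-myelinating Schwann cells and do not form myelin around these thin axons. Myelinating Schwann cells surround sensory fibres that enter the organ through other nerves, so a whole organ holds both kinds of glia. Sox10 is the transcription factor that specifies both, Fabp7, S100b, Npy, Ngfr and Frzb are found in ensheathing glia, and Mbp and Pmp22 encode proteins of compact myelin. Several of these genes are also active outside glia: S100b in cartilage, Sox10 in glandular epithelium, Pmp22 in connective tissue and epithelia, and Mbp, through a separate upstream promoter, in neurons and immune cells.

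Libraries held 43385516 to 134042284 estimated counts, with a median of 63096714. Levels between libraries are given as counts scaled to 1000000 per library (CPM) after TMM normalization, and levels between genes as TPM, which sum to 1000000 per library and divide by transcript length. Of the 16 genes of a list for ensheathing glia and Schwann cells in general, 15 reached at least 1 CPM in all 18 libraries, among them Erbb3, the neuregulin receptor of glia, at 56.0 to 94.3 CPM and Foxd3, a neural crest factor, at 1.40 to 3.82 CPM. Of 6 oligodendrocyte genes, only Mag, which Schwann cells share, passed that level, and Opalin had at most 3 counts in every library. Smad4 summed over all its exons was 55.5 ± 18.8 CPM in AP-2εCre cKO (SD, n = 3) against 59.4 ± 19.8 in controls (n = 6), and 59.6 ± 4.48 in OMPCre cKO against 75.8 ± 6.47 in controls (adjusted p = 0.909 by edgeR's quasi-likelihood test), a measure that does not single out the floxed exon. Tfap2e, the host gene of the first Cre, was at 7.50 ± 1.82 CPM in its heterozygotes against 15.4 ± 1.30 CPM in the flox controls (adjusted p = 0.187). OMPCre flox control 3 stood apart from the other 17 libraries in genes outside the 8. The 4 genes of a skeletal muscle list summed to 93.3 CPM there and to 2.71 to 7.69 CPM elsewhere, and Fa2h, a hydroxylase of myelin lipids, was at 77.2 CPM against 0.170 to 1.11. Without that library the log2 fold change of Frzb in OMPCre cKO, given later, went from 0.03 to -0.05, and the other 7 genes kept their signs.

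None of the 8 genes passed the test in any of the 7 comparisons made. In AP-2εCre cKO against the 6 controls of the line, 0 of the 8 were called at an adjusted p under 0.05 by edgeR, where 0.0378% of all 18495 genes tested were called, and 2 of the 8, Sox10 and Npy, had an unadjusted p under 0.05, where 10.2% of all genes did. In OMPCre cKO, 0 of the 8 were called, where 0% of 18623 genes were, and Mbp alone had an unadjusted p under 0.05, where 3.95% of all genes did. DESeq2 also called 0 of the 8 in each comparison, where it called 1.67% of all genes in AP-2εCre and 0.228% in OMPCre cKO, 0.68% and 0.84% in the heterozygotes of these lines against flox controls, 0.802% between the lines' controls, 0.0898% for the difference between the lines' effects and 1.01% for their average. Over all genes, cKO and control libraries did not overlap for 5.06% in the AP-2εCre and 2.34% in the OMPCre line. In the comparisons that share a line, the same controls serve more than one contrast. The 18 libraries are labelled biological replicates, and fewer glial cells and less RNA per glial cell cannot be told apart in RNA of a whole organ.

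**Figure D1:**
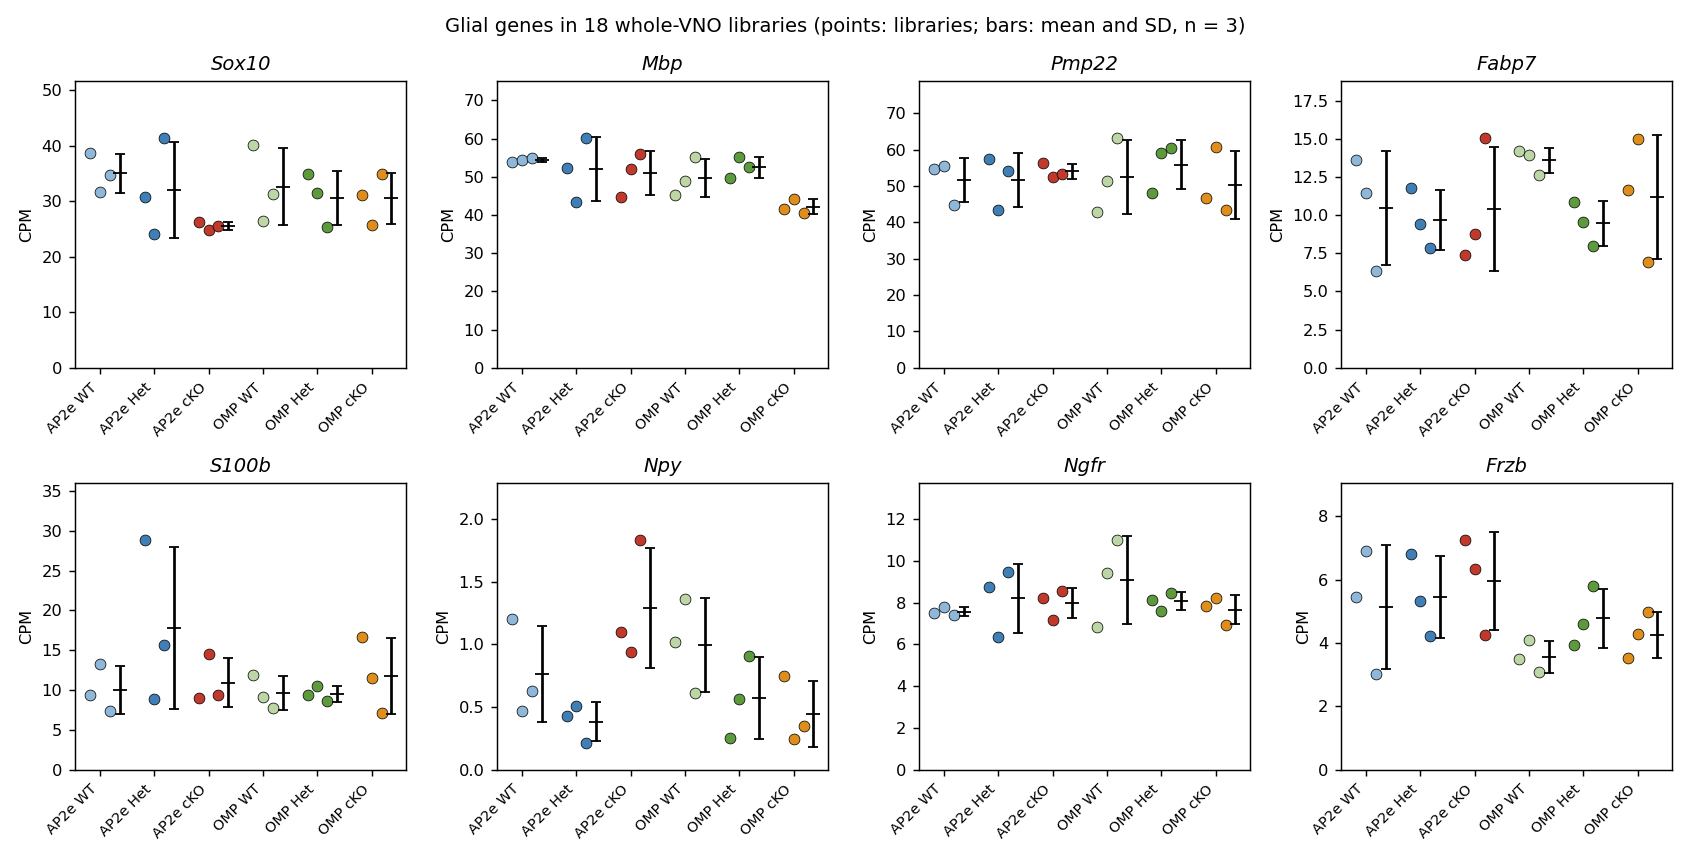
CPM of the 8 genes in each of the 18 libraries, by group, with the mean and SD of each group of 3 beside its points; each vertical axis starts at 0. Mbp sits at 40.6 to 44.3 CPM in the 3 OMPCre cKO libraries and at 45.3 CPM or more in the 6 controls of that line, whereas the groups overlap for the other 7 genes in both comparisons of cKO with controls.

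By TPM, over the 6 flox controls of both lines, the genes ran from Mbp at 33.1 ± 10.6 (SD, n = 6) and Pmp22 at 28.9 ± 8.70, through Fabp7 at 17.1 ± 4.39, Sox10 at 11.0 ± 2.03 and S100b at 6.22 ± 1.05, to Npy at 2.15 ± 0.757, Ngfr at 2.15 ± 0.795 and Frzb at 2.04 ± 1.09. Pmp22 was above Fabp7, and S100b above Npy, in 18 of 18 libraries. Sox10 was above S100b, and Fabp7 above Sox10, in 15 of 18. Mbp was above Pmp22 in 14 of 18. By a two-sided exact sign-flip permutation test over the 6 flox controls, the steps from Pmp22 to Fabp7, Sox10 to S100b and S100b to Npy each gave p = 0.031, the smallest value 6 pairs allow, and 0.0729 after Benjamini-Hochberg adjustment over the 7 neighbouring pairs. The exact p was 0.0625 for Fabp7 and Sox10, 0.188 for Mbp and Pmp22, 0.656 for Ngfr and Frzb and 1 for Npy and Ngfr. None of the 7 steps passed after adjustment, and with 6 pairs a missed threshold does not show equal levels. Ordered by CPM, which favours long transcripts, 25 of the 28 pairs of genes kept their order.

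**Figure D2:**
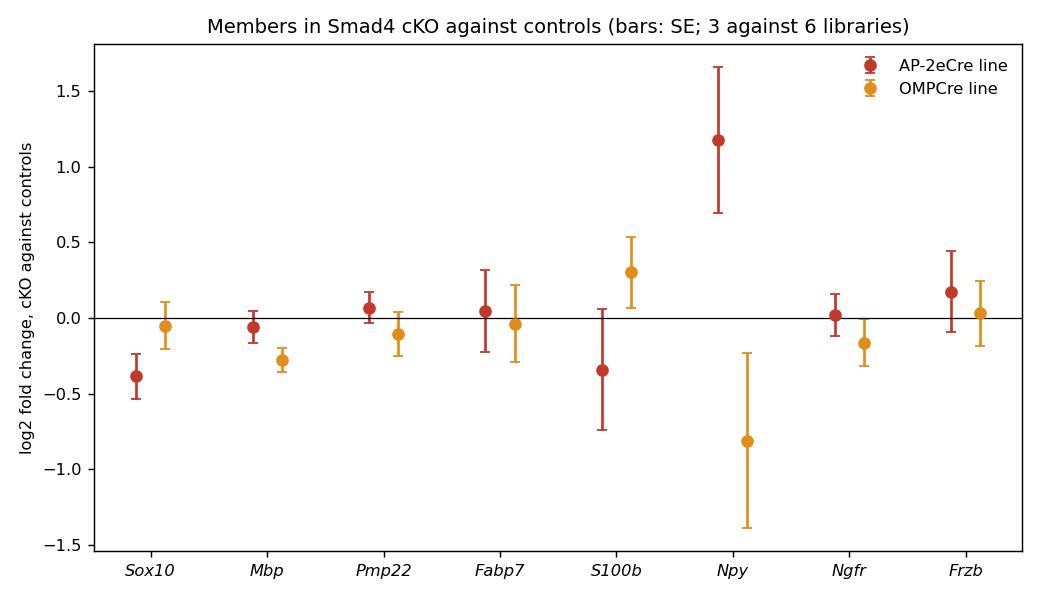
Log2 fold change of each gene in cKO against the 6 controls of its line, with its SE from edgeR, for both lines. Most values lie near 0; Npy is at 1.18 in the AP-2εCre line and at -0.81 in the OMPCre line, and Mbp at -0.28 in the OMPCre line has a short bar.

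Sox10, on chromosome 15 at 79154908 to 79165240 on the minus strand (GRCm38), was lower on average in AP-2εCre cKO. The 3 cKO libraries had 26.3, 24.9 and 25.6 CPM, the flox controls 38.7, 31.6 and 34.8, and the heterozygotes 30.8, 24.1 and 41.4. The cKO libraries lay close together at the bottom of the range, but heterozygote 2 lay below all of them, so the groups overlapped. The log2 fold change was -0.39 (SE 0.15; p = 0.0271, adjusted p = 0.414 by edgeR), and the exact permutation test, which covers all 84 ways to draw 3 of 9 libraries and cannot go below 0.012, gave p = 0.0833. In the OMPCre line Sox10 was at 31.1, 25.7 and 34.9 CPM in cKO, at 40.2, 26.5 and 31.3 in flox controls and at 35.0, 31.6 and 25.3 in heterozygotes, a log2 fold change of -0.05 (SE 0.15; adjusted p = 1).

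A list of 4 sustentacular and gland genes was also lower on average in AP-2εCre cKO, with 0 of 4 passing the adjusted test. All 4 had a log2 fold change below 0, with a median of -0.97 against 0.00 over all genes. Without heterozygote 1, without cKO 1 or against flox controls alone, 3 of 4 did. Their summed level was 16250 to 20940 CPM in the 3 cKO and 29840 to 49680 CPM in the 6 controls. Lcn4, a lipocalin of the vomeronasal glands, was at 4326 ± 677 CPM in cKO and 10130 ± 3154 CPM in controls (adjusted p = 0.248 by edgeR), Lcn3, another, at 14520 ± 2572 and 23760 ± 4525 (adjusted p = 0.308), and Cyp2a5, a cytochrome of the nasal epithelium and glands, at 352 ± 90.6 and 912 ± 552 (adjusted p = 0.346). Over the 18 libraries Sox10 and this sum had r = 0.580 and rho = 0.428 on log2 values (permutation p = 0.012 and 0.0781, adjusted 0.0957 and 0.375 over 24 relations), and r was 0.474 without AP-2εCre cKO 1 and flox control 1. Its part in the Sox10 values was not tested.

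None of the relations of Sox10 with the other 7 genes passed the test over the 18 libraries. Its Pearson correlations with them over the 18 libraries, on log2(CPM + 1), ran from -0.361 with Frzb to 0.214 with Mbp, and the lowest permutation p was 0.641 after adjustment over the 7 relations; Spearman's rho ran from -0.389 to 0.228, with adjusted p of 0.633 or more. Without AP-2εCre heterozygotes 2 and 3, the libraries farthest from the Sox10 median, r ran from -0.534 with Pmp22 to 0.0175 with Fabp7. Within lines (n = 9 each) r ran from -0.409 with Npy to 0.679 with Mbp in the AP-2εCre line. In the OMPCre line it ran from -0.697 with Pmp22 to 0.0563 with S100b. It differed in sign between the lines for Mbp (-0.228 in OMPCre), Pmp22 (0.209 in AP-2εCre), and Ngfr (0.455 in AP-2εCre and -0.508 in OMPCre). Within the series of library names it ran from -0.197 with Frzb to 0.200 with Fabp7 (n = 12) and from -0.934 with Npy to 0.448 with S100b (n = 6). Over all 28 pairs of the 8 genes the median r was 0.0872, and only Pmp22 with Ngfr at 0.668 and Mbp with Pmp22 at 0.505 were over 0.5. Among 15838 genes with a mean of at least 1 CPM, the genes most like Sox10 over the 18 libraries were Camsap3, a microtubule minus-end protein of epithelial cells, with r = 0.886, and Rab3d, a regulator of exocytosis in secretory cells, with r = 0.856.

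Mbp, on chromosome 18 at 82475146 to 82585637 on the plus strand, encodes myelin basic protein, which binds the inner faces of the myelin membrane together. It had 41.5, 44.3 and 40.6 CPM in OMPCre cKO, 45.3, 48.9 and 55.1 in flox controls and 49.8, 55.1 and 52.5 in heterozygotes. All 3 cKO libraries lay below all 6 controls, as they did, with the cKO lower, for 0.934% of all genes tested. The log2 fold change was -0.28 (SE 0.08; p = 0.0053, adjusted p = 1 by edgeR and 0.233 by DESeq2), and the exact permutation test gave p = 0.0119. In the AP-2εCre line Mbp was at 44.6, 52.0 and 56.0 CPM in cKO against 53.9, 54.5 and 54.8 in flox controls and 52.4, 43.3 and 60.0 in heterozygotes, with a log2 fold change of -0.06 (SE 0.11; adjusted p = 0.909), and the difference between the lines' effects was not called.

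The counts of Mbp came from transcripts of 2 groups of starts. Golli transcripts start at the 5' end of the gene (82475146 to 82475370), while the transcripts of the classic myelin proteins start far inside it (82554470 to 82554580). A single Golli transcript of 4797 bases, which ends at 82558703, short of the classic 3' ends, took 62.7% of the Mbp counts of the 18 libraries, and Golli starts together took 51.2% to 79.1% of a library's Mbp counts (median 62.2%). Per length the order was the other way: classic-start transcripts were at 28.8 ± 8.98 TPM (SD, n = 18) and Golli-start transcripts at 6.15 ± 1.09 TPM. Reads in exons that both share were divided between them by the quantifier, so each portion is an estimate.

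Both portions varied in different ways between libraries. Golli-start counts lay between 27.3 and 36.4 CPM, a narrow range, and classic-start counts between 9.48 and 26.9 CPM. In OMPCre cKO the classic portion was at 11.6, 17.0 and 11.6 CPM, in flox controls at 9.48, 17.9 and 26.9, and in heterozygotes at 20.9, 22.5 and 22.7. Flox control 1 of the OMPCre line thus lay below the 3 cKO, and the exact permutation test gave p = 0.167 for the classic and p = 0.25 for the Golli portion. In the AP-2εCre line the classic portion was at 17.3 ± 3.49 CPM in cKO and 19.8 ± 5.21 CPM in controls (exact p = 0.595).

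Among the genes most like Mbp over the 18 libraries was Fgfr3, a receptor for fibroblast growth factors, with r = 0.731.

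Pmp22, on chromosome 11 at 63128982 to 63159547 on the plus strand, encodes peripheral myelin protein 22. Its groups differed by less than the spread between libraries: 54.0 ± 1.97 CPM in AP-2εCre cKO (n = 3) against 51.7 ± 6.02 in controls (n = 6; log2 fold change 0.07, SE 0.10, adjusted p = 0.889 by edgeR), and 50.2 ± 9.30 in OMPCre cKO against 54.1 ± 7.91 (log2 fold change -0.11, SE 0.15, adjusted p = 1). The study's supplement names Pmp22 among genes lowered in AP-2εCre cKO against both kinds of control, and gives no value for the gene. Here its log2 fold change in that line was above 0 and not called. Pmp22 is known to have an upstream promoter used mainly by myelinating Schwann cells and a downstream promoter used more widely. The upstream transcript starts at 63128982 and took 9.83% of the gene's counts over the 18 libraries, and the main downstream transcript starts at 63131512 and took 87.9%. The 250 bases before the RefSeq start of each, on GRCm38.p6, are shown with every CG dinucleotide in capitals.
Pmp22 upstream promoter, chr11:63128732-63128981, plus strand: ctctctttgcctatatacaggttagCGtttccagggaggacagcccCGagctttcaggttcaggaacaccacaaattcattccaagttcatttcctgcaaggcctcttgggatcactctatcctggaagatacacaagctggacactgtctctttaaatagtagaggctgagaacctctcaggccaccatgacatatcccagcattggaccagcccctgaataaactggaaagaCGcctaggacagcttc
Pmp22 downstream promoter, chr11:63131207-63131456, plus strand: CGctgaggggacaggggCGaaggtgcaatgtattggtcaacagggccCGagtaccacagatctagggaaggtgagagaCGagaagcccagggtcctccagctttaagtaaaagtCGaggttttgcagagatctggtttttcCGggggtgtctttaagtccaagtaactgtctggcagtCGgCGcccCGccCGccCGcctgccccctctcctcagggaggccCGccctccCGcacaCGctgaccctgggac
The upstream window held 3 CG dinucleotides and 48.8% G or C, and the downstream window 14 and 61.2%, where the median of 32851 RefSeq promoters was 6 and 52.4%. RefSeq and the annotation of the counts place the downstream start at slightly different bases.

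The upstream portion of Pmp22 went from 0 to 10.7 CPM between libraries. In OMPCre cKO it was at 0.662, 4.56 and 0 CPM, in flox controls at 0.120, 6.98 and 9.64, and in heterozygotes between 6.83 and 10.7. As with classic Mbp, flox control 1 of that line was low along with the cKO, and the exact permutation test gave p = 0.107. In the AP-2εCre line the upstream portion was at 5.76 ± 1.30 CPM in cKO and 3.97 ± 2.67 CPM in controls (exact p = 0.298). Over the 18 libraries the upstream portion of Pmp22 varied with the classic portion of Mbp, with r = 0.809 (permutation p = 0.00017, adjusted 0.00068 over 4 relations) and rho = 0.674 (adjusted p = 0.0126), while the downstream portion had r = 0.412 with classic Mbp (adjusted p = 0.182; rho = 0.451, adjusted p = 0.124). The Golli portion of Mbp had r = -0.160 with the upstream and -0.211 with the downstream portion (adjusted p = 0.525 for both; rho = -0.221 and -0.183, adjusted p = 0.461). Without OMPCre flox control 1 and AP-2εCre heterozygote 2, the libraries farthest from the median of classic Mbp, the first 2 values of r were 0.706 and 0.219, and without OMPCre cKO 2 and flox control 3 the Golli values were -0.0579 and 0.0727. Within lines, r between classic Mbp and upstream Pmp22 was 0.497 (AP-2εCre, n = 9) and 0.950 (OMPCre, n = 9), and within the 2 series of library names 0.797 (n = 12) and 0.822 (n = 6). These relations between starts were chosen after the values had been seen. For the gene as a whole, the most alike were Gfra2, the neurturin co-receptor, with r = 0.787, and Heyl, a Notch target gene of vascular smooth muscle, with r = 0.778.

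**Figure D3:**
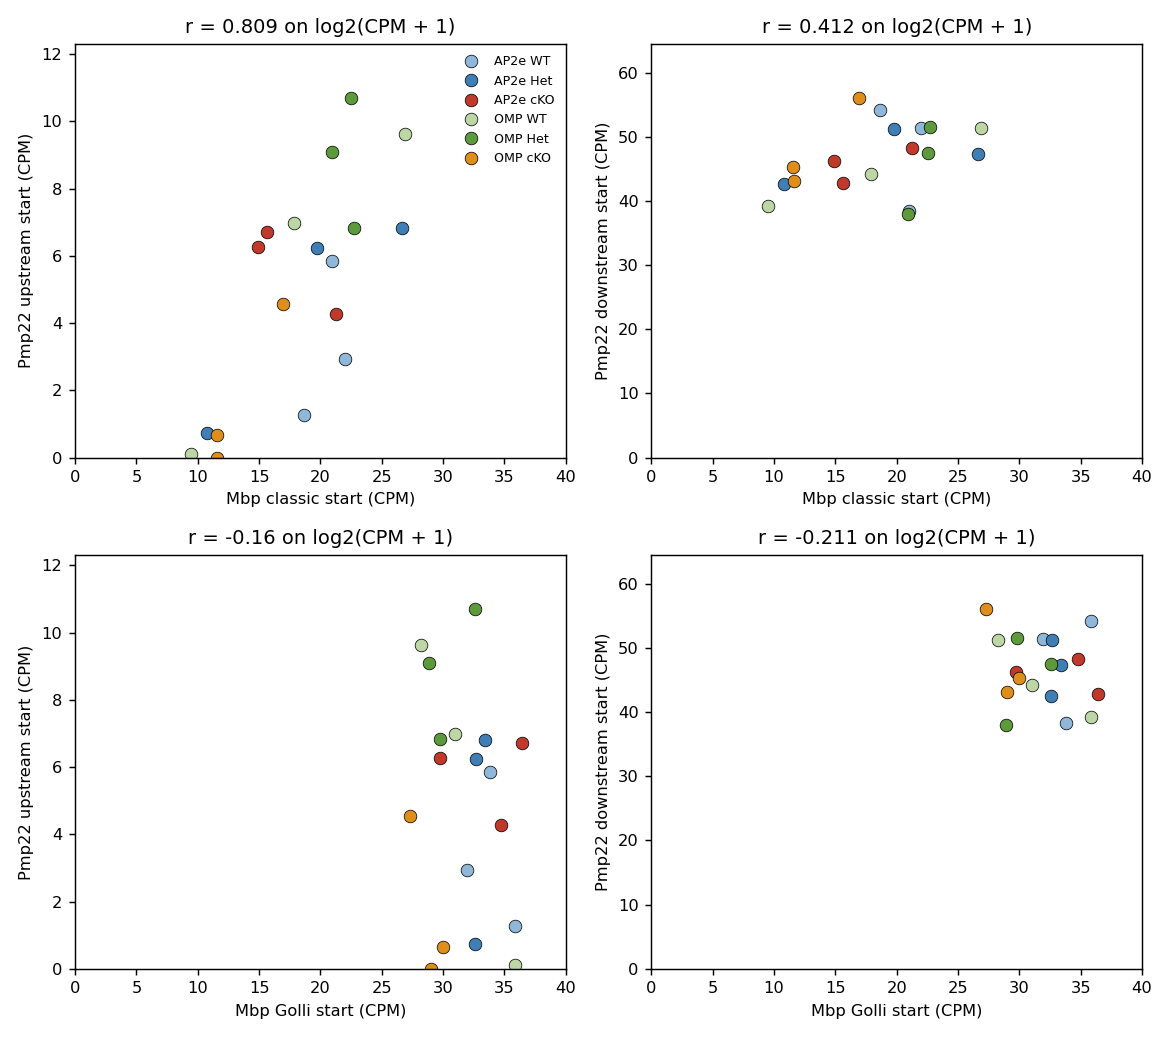
Each panel plots a portion of Mbp counts (CPM, horizontal) against a portion of Pmp22 counts (CPM, vertical), each assigned to transcripts of a group of starts, in the 18 libraries, coloured by group. Classic Mbp and upstream Pmp22 rise together (r = 0.809), and in the other 3 panels r lies between -0.211 and 0.412.

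The other myelin genes gave the context for Mbp and Pmp22. Of 18 genes of a Schwann cell myelin list, which holds both, 17 were tested and 0 were called in any comparison. In OMPCre cKO 16 of the 17 had a log2 fold change below 0, with a median of -0.41 against 0.00 over all genes, of which 48.7% were above 0. In AP-2εCre cKO 12 of the 17 were below 0, with a median of -0.15, where 50.6% of all genes were above 0. Averaged over both lines, 17 of 17 were below 0, 15 of 15 without Mbp and Pmp22, with a median of -0.31 against -0.01, where 47.2% of all genes were above 0. These counts rest in part on OMPCre flox control 3: without it 15 of the 17 were below 0 in OMPCre cKO, with a median of -0.35, and 14 of the 17 on average over both lines (13 of 15 without Mbp and Pmp22), with a median of -0.25. The part of the skeletal muscle RNA of that library in the myelin values was not tested. With each library left out in turn, 14 of 18 (without OMPCre cKO 3) to 18 of 18 (without OMPCre cKO 1) were below 0 in OMPCre cKO, and 10 to 13 of 17 in AP-2εCre cKO. The median in AP-2εCre cKO ran from -0.24 (without heterozygote 2) to -0.03 (without heterozygote 3).

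Single myelin genes had values of unlike size in the lines, none of them called. In OMPCre cKO 3 of the 17 tested had an unadjusted p under 0.05, Mbp and Drp2 among them, where 3.95% of all genes did, and 1 of 17 in AP-2εCre cKO, where 10.2% did. Drp2, a dystrophin-related protein of the Schwann cell membrane, was at 5.62 ± 0.924 CPM in OMPCre cKO against 8.11 ± 1.70 in controls. Its log2 fold change was -0.53 (SE 0.20, adjusted p = 1 by edgeR; exact permutation p = 0.0357), and -0.62 to -0.41 with a library left out. Ncmap, a myelin-associated protein, was at 1.71 ± 0.290 against 2.35 ± 0.377 CPM (log2 fold change -0.46, SE 0.22, adjusted p = 1 by edgeR; exact permutation p = 0.0238), and its value ran from -0.61 to -0.37 in the same way. In AP-2εCre cKO the log2 fold changes were -0.10 for Drp2 and -0.20 for Ncmap (adjusted p = 0.899 and 0.903). Mal, a raft proteolipid, was at 46.7 ± 4.69 CPM in OMPCre cKO against 58.8 ± 26.8 in controls, but flox control 2 alone had 113 CPM, and the other 5 controls averaged 47.9 ± 3.98. In the AP-2εCre line it was at 42.0 ± 5.19 against 58.1 ± 23.7, with 101 CPM in heterozygote 3. Its log2 fold change there went from -0.46 to -0.23 without that library. Egr2, the transcription factor that drives myelination, had log2 fold changes of -1.25 (SE 0.70) in OMPCre and 0.41 (SE 0.35) in AP-2εCre cKO. The OMPCre value came with 19.6 CPM in flox control 3, where the other 17 libraries had 1.39 to 4.73 CPM, and it was -0.36 (SE 0.20) without that library. For Mbp itself the averaged log2 fold change was -0.17 (SE 0.07; adjusted p = 0.451 by edgeR), with an unadjusted p under 0.05 as for 9.37% of all genes, and for Pmp22 it was -0.02.

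**Figure D4:**
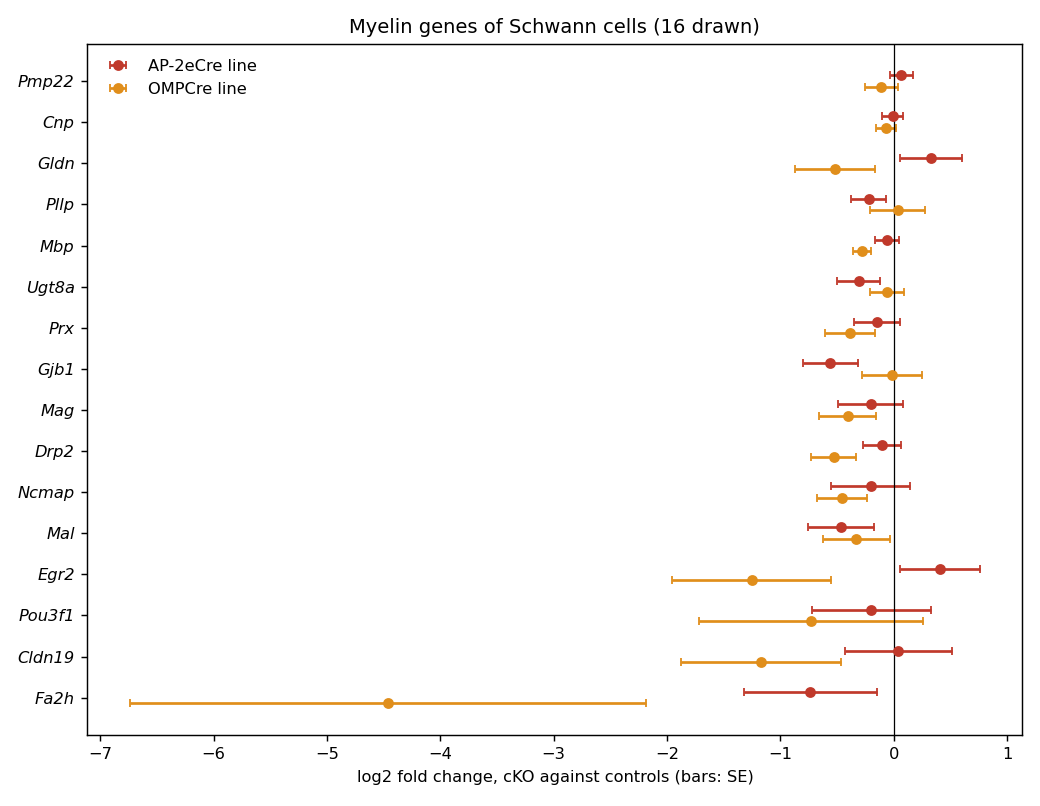
Log2 fold change with SE of 16 of the 17 tested Schwann cell myelin genes in cKO against the 6 controls of each line, ordered by the average of both lines. In the OMPCre line 15 of the 16 values lie below 0 and in the AP-2εCre line 12 do; the lowest value, Fa2h at -4.46 (SE 2.28), rests on OMPCre flox control 3 and is 0.19 (SE 0.40) without it.

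Fabp7, the brain-type fatty acid-binding protein of radial and ensheathing glia, lies on chromosome 10 at 57784881 to 57788450 on the plus strand. It was at 11.6, 15.0 and 6.96 CPM in OMPCre cKO and at 7.37, 8.78 and 15.0 in AP-2εCre cKO, so that the spread within each cKO group exceeded any difference from controls (log2 fold changes -0.04 and 0.05, adjusted p = 1 and 0.976 by edgeR). In the OMPCre line the heterozygotes had 10.9, 9.52 and 7.95 CPM and the flox controls 14.2, 13.9 and 12.6. The heterozygotes lay below all flox controls, which happened in one or the other direction for 11.5% of all genes and with the heterozygotes lower for 4.95%. The log2 fold change was -0.53 (SE 0.25; adjusted p = 0.833, where 0.0752% of all genes were called), and the exact permutation test gave p = 0.1, the smallest that 3 against 3 allows. In the AP-2εCre line the same comparison gave a log2 fold change of -0.11 (adjusted p = 1, where 0.0487% were called). The genes most like Fabp7 were Max, the partner of Myc, with r = 0.878 and Rab9, a GTPase of late endosomes, with r = 0.875.

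S100b, a calcium-binding protein that marks glia and is also made by chondrocytes, lies on chromosome 10 at 76253853 to 76261159 on the plus strand. Its level was set apart by a single library: AP-2εCre heterozygote 1 had 28.8 CPM, and the other 17 libraries 7.12 to 16.6 CPM. The AP-2εCre heterozygotes averaged 17.8 ± 10.1 CPM and the flox controls 10.0 ± 3.02 (log2 fold change 0.83, SE 0.40, adjusted p = 0.932), and without heterozygote 1 the log2 fold change was 0.28. In cKO, S100b was at 8.99, 14.5 and 9.34 CPM in the AP-2εCre line (log2 fold change -0.34, SE 0.40, adjusted p = 0.846) and at 16.6, 11.5 and 7.12 CPM in the OMPCre line (0.30, SE 0.24, adjusted p = 1). The AP-2εCre value was 0.01 without heterozygote 1 and 0.13 against flox controls alone. Between the controls of the lines it was at 13.9 ± 7.93 CPM in the AP-2εCre line and 9.54 ± 1.47 in the OMPCre line (n = 6 each; log2 fold change 0.54, SE 0.29, adjusted p = 0.735, where 0.159% of genes were called). That log2 fold change was 0.19 without heterozygote 1.

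The level of S100b moved with cartilage genes. Heterozygote 1 of the AP-2εCre line also had the highest summed level of an 8-gene cartilage list, 325 CPM, where the other 17 libraries ranged from 55.5 to 244. Over the 18 libraries S100b and that sum had r = 0.704 (permutation p = 0.00066, adjusted 0.00792 over 24 relations) and rho = 0.711 (adjusted p = 0.0154), and without this library and OMPCre flox control 3 r was 0.581. Within the AP-2εCre and OMPCre lines r was 0.826 and 0.478 (n = 9 each), and within the series of library names 0.519 (n = 12) and 0.896 (n = 6). In AP-2εCre heterozygotes against flox controls, 7 of the 8 cartilage genes had a log2 fold change above 0, with a median of 0.87, where 51.5% of all genes were above 0, and 0 were called; those with the highest CPM were Chad, Col2a1 and Acan, matrix genes of chondrocytes. Flox control 3 of that line was low, with a cartilage sum of 75.5 CPM. The flox controls 1 and 2 had 201.5 and 236.8 CPM, and the heterozygotes 325, 173.4 and 232.4. The part of cartilage in the S100b values was not tested. The genes most like S100b were Cck, the cholecystokinin precursor, with r = 0.878, and Csn3, kappa casein, with r = 0.817. These relations of members with lists were chosen after the values had been seen.

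Frzb, on chromosome 2 at 80411970 to 80447625 on the minus strand, encodes a secreted Wnt inhibitor. It was at 7.25, 6.35 and 4.24 CPM in AP-2εCre cKO against 3.03 to 6.91 CPM in the 6 controls (log2 fold change 0.17, SE 0.27, adjusted p = 0.891) and at 3.51, 4.27 and 4.98 CPM in OMPCre cKO against 3.08 to 5.79 (0.03, SE 0.22, adjusted p = 1). The AP-2εCre value was 0.01 without cKO 1, 0.37 without cKO 3 and 0.32 with counts from length-scaled TPM. The OMPCre value was -0.49 with counts from length-scaled TPM and -0.05 without flox control 3. A non-coding transcript of 830 bases took 15.8% of its counts. Frzb followed the 6 fibroblast genes: with their summed level, mostly of the collagens Col1a1, Col1a2 and Col3a1, it had r = 0.781 (permutation p = 0.00011, adjusted 0.00264) and rho = 0.777 (adjusted p = 0.00768). Without the flox controls 3 of both lines, which had the lowest fibroblast sums, 16370 and 17230 CPM, r was 0.669, and within lines it was 0.672 (AP-2εCre, n = 9) and 0.911 (OMPCre, n = 9). The genes most like Frzb were Nedd4, a ubiquitin ligase, with r = 0.938 and Fam114a1 with r = 0.872. Of 8 secreted Wnt inhibitors, with Sfrp2 and Wif1 the highest by TPM, 0 were called in any comparison, and their median log2 fold changes were 0.18 in AP-2εCre and -0.03 in OMPCre cKO.

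**Figure D5:**
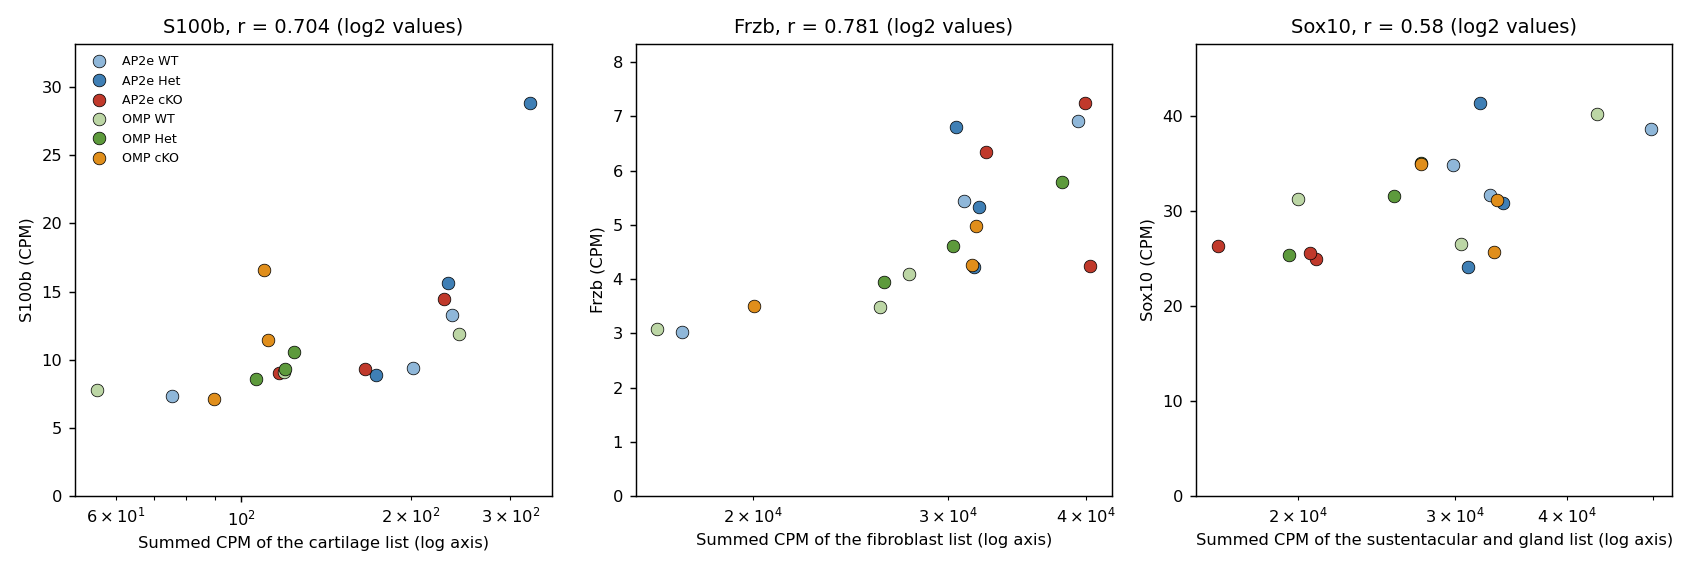
CPM of S100b, Frzb and Sox10 (vertical) in the 18 libraries against the summed CPM of the cartilage, fibroblast, and sustentacular and gland lists (horizontal, log axes), coloured by group. The relations of S100b and Frzb (r = 0.704 and 0.781) passed the adjusted permutation test and that of Sox10 (r = 0.580) did not; the 3 AP-2εCre cKO libraries lie at the left of the Sox10 panel with OMPCre libraries among them.

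Ngfr, the low-affinity neurotrophin receptor p75, on chromosome 11 at 95568818 to 95587735 on the minus strand, was among the steadiest of the 8 genes. It was at 8.22, 7.17 and 8.54 CPM in AP-2εCre cKO against 6.37 to 9.50 CPM in the controls (log2 fold change 0.02, SE 0.14, adjusted p = 0.982) and at 7.84, 8.25 and 6.92 CPM in OMPCre cKO against 6.85 to 11.0 (-0.16, SE 0.16, adjusted p = 1). Its coefficient of variation over the 18 libraries was 13.7%, against 11.3% for Mbp and 59.1% for Npy. The genes most like it were Emp2, an epithelial membrane protein of the Pmp22 family, with r = 0.800 and Capg, an actin-capping protein, with r = 0.798. Of 8 neurotrophins and their receptors 7 were tested and 0 called, with medians of -0.14 in AP-2εCre and -0.17 in OMPCre cKO; Sort1, Ntrk2 and Ntrk3, receptors that work with Ngfr or beside it, had the highest CPM.

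Npy, on chromosome 6 at 49822710 to 49829507 on the plus strand, encodes neuropeptide Y, a peptide of ensheathing glia and of sympathetic nerve endings. It had the fewest reads of the 8 genes, 12 to 132 counts per library, and the widest spread. In the AP-2εCre line the cKO had 1.10, 0.942 and 1.83 CPM (71, 132 and 125 counts), the flox controls 1.20, 0.466 and 0.628, and the heterozygotes 0.431, 0.509 and 0.212. The cKO lay above all controls but flox control 1 (log2 fold change 1.18, SE 0.48, p = 0.0344, adjusted p = 0.445 by edgeR; exact permutation p = 0.0357). The size depended on the control group: it was 0.75 against flox controls alone (adjusted p = 0.773) and 1.75 against heterozygotes alone (adjusted p = 0.402). Without cKO 3 it was 0.84 (adjusted p = 0.840).

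In the OMPCre line the order was the other way. The cKO had 0.746, 0.242 and 0.348 CPM (48, 15 and 19 counts), the flox controls 1.02, 1.36 and 0.609, and the heterozygotes 0.250, 0.565 and 0.906, and these groups overlapped (log2 fold change -0.81, SE 0.58, adjusted p = 1; exact permutation p = 0.214). Here too the control group mattered, with -1.16 against flox controls alone and -0.36 against heterozygotes alone, and with a library left out the value ran from -1.42 (without cKO 1) to -0.51 (without cKO 2). The difference between the lines' effects was 1.99 on the log2 scale (SE 0.77; adjusted p = 1 by edgeR), with an unadjusted p under 0.05 as for 4.91% of all genes, of which 0% were called. Of 4 sympathetic neuron genes, Slc6a2, the noradrenaline transporter, was at 4.34 ± 0.728 CPM in AP-2εCre cKO and 4.73 ± 1.44 in controls, while Dbh averaged 0.0580 and Th 0.0528 CPM over the 18 libraries. The log2 fold change of Slc6a2 was 0.32 in OMPCre cKO. In heterozygotes against flox controls it was 0.72 (AP-2εCre) and 0.485 (OMPCre), with an unadjusted p under 0.05 by edgeR as for 5.47% and 5.84% of all genes. It was called in none of these. Of 4 Npy receptors 3 were tested and 0 called, the highest of them, Npy1r, averaging 2.47 CPM over the 18 libraries. The genes most like Npy were Clec1b, a platelet and myeloid receptor, with r = 0.863 and Gm43302 with r = 0.802, both at low levels.

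The 16 genes of the glial list, 6 of them described above, went both ways and 0 were called in any comparison by edgeR. Their median log2 fold change was 0.02 in AP-2εCre and 0.01 in OMPCre cKO, and 4 of 16 had an unadjusted p under 0.05 in AP-2εCre cKO, where 10.2% of all genes did, and 1 of 16 in OMPCre cKO, where 3.95% did. The 4 were Sox10, Npy, Erbb3 and Ednrb, the endothelin B receptor of neural crest cells. Ednrb was at 55.3 ± 5.06 CPM in AP-2εCre cKO against 42.0 ± 8.39 in controls (log2 fold change 0.40, SE 0.15, adjusted p = 0.403) and at 66.2 ± 10.6 against 54.0 ± 2.67 in the OMPCre line (0.29, SE 0.09, adjusted p = 1), and averaged over both lines it was called without AP-2εCre flox control 1 (log2 fold change 0.41, SE 0.07, adjusted p = 0.0215) but not with it (0.34, SE 0.09, adjusted p = 0.235 by edgeR and 0.0474 by DESeq2). Between the controls of the lines it was lower in the AP-2εCre line, and again called without that library (log2 fold change -0.48, SE 0.08, adjusted p = 0.0323) but not with it (-0.36, SE 0.11, adjusted p = 0.358). Erbb3 was at 60.5 ± 3.93 CPM in AP-2εCre cKO against 76.9 ± 8.30 in controls (log2 fold change -0.34, SE 0.10, adjusted p = 0.324) and at 74.2 ± 4.82 against 80.8 ± 8.70 in the OMPCre line (-0.12, adjusted p = 1). Its AP-2εCre cKO libraries lay below all controls, as for 2.85% of all genes tested, and it was the only 1 of the 16 whose groups did not overlap there. L1cam, an adhesion molecule of axons and glia, and Matn2, a matrix protein of peripheral nerve, had log2 fold changes between -0.05 and 0.17 in the 2 comparisons. Of 8 neuregulin and ErbB genes 7 were tested and 0 called, with Adam10 and Bace1, proteases that shed neuregulins, the highest by TPM. Of 4 fatty acid-binding protein genes, with Fabp5 and Fabp4 beside Fabp7, 0 were called.

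Other cell types were read from marker lists in the same way. Of 4 genes known in astrocytes, Slc1a2, a glial glutamate transporter, was called, higher on average over both cKO (log2 fold change 0.93, SE 0.16, adjusted p = 0.0278, where 0.0925% of all genes were called), with 8.88 ± 1.21 CPM against 5.02 ± 0.623 in the AP-2εCre line and 11.3 ± 4.76 against 5.49 ± 1.32 in the OMPCre line, the cKO lying above all controls in both, as for 2.21% and 1.41% of all genes. The call did not hold in 7 of the 18 fits that left out a library: those without AP-2εCre flox control 2, cKO 2 or cKO 3 and those without OMPCre flox control 2, heterozygote 2, heterozygote 3 or cKO 3, where the last gave 0.73 on the log2 scale (adjusted p = 0.141). With all 18 libraries Slc1a2 was the only gene of all these lists to be called by edgeR; Aqp4, Gja1 and Slc1a3, the other genes of that list, were not. In none of the lists for endothelium, smooth muscle, skeletal muscle, immune cells, and mature and immature neurons was a gene called by edgeR. The skeletal muscle genes had a median log2 fold change of -2.17 in OMPCre cKO and of 0.26 without flox control 3.

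Promoter sequences in RefSeq (GRCm38.p6, 250 bases before to 50 after the start) were taken for 6 of the 8 genes, 9 in all, 4 of them of Pmp22. Mbp was left out of this search and Sox10 had no entry, so the search does not cover these genes. The SOX motifs ACAAAG and ACAATG were searched on both strands. They were in 0 of these 9 windows, where 28.6% of 32851 promoters held at least 1 of them; these letters are not in these windows, which says nothing of sites elsewhere.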

How the data were processed

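Libraries were polyadenylated, strand-specific and read as single 75-base reads. Per the labels' processing notes, the authors quantified transcripts of mm10/GRCm38 with Salmon 0.14.0 and used DESeq2 1.22.2. The deposited files hold, for 116248 transcripts, the authors' estimated counts, not normalized, and TPM, scaled to 1000000 per library. The 116072 transcripts in GENCODE vM21 were summed to 35596 genes and rounded; the other 176 held at most 0.0324% of counts. Salmon's split of reads between overlapping transcripts makes portions by start estimates. A 19th library, whose labels name both a heterozygote and a cKO, entered no comparison.

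The test was edgeR 4.0.16 (quasi-likelihood, TMM, filterByExpr, Benjamini-Hochberg over all genes tested, called at adjusted p under 0.05; R 4.3.3); it was tested on simulated data. Single genes also had two-sided exact permutation tests on log2(CPM + 1), and correlations 100000 permutations. Alternatives were DESeq2 1.42.0 and its size factors, a filter of 1 count, length-scaled TPM, either control alone, a common fit of all groups, the series of library names, the replicate number, and each library left out. Named were the 8 genes, list genes that were called, the 3 genes of each list with the highest CPM, and the 2 genes most like each member; further genes of these lists were named after their values were seen. Some items are not reported here. The members and lists were chosen with earlier results of these data known. Intervals are SD or SE over libraries, and floors of 3 counts cover counting error only.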

Additional observations from a re-analysis of the deposited data

Results flagged for a closer look

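Npy had opposite signs in the lines: each of the 3 AP-2εCre cKO libraries lay above the mean of its controls and each of the 3 OMPCre cKO libraries below the mean of its own, and the difference between the effects was 1.99 on the log2 scale (SE 0.77; adjusted p = 1 by edgeR). The counts behind it were 12 to 132 per library.

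The library whose labels conflict had Sox10 at 15.3 TPM, above the 8.31 to 14.3 TPM of the 6 controls of the AP-2εCre line and above the 8.47 to 12.2 TPM of its 3 cKO. S100b was at 4.88 TPM there, below the 5.28 to 16.9 TPM of the 9 libraries of the line, and the other 6 genes lay within the range of those 9.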

How the results depend on the processing

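None of the 8 genes was called under any alternative tried: 138 fits gave 1104 tests of members, and the lowest adjusted p was 0.233, for Mbp in OMPCre cKO with DESeq2. Counts over all genes moved more: DESeq2 called 309 genes against 7 in AP-2εCre cKO, 42 against 0 in OMPCre cKO, 123 against 9 and 155 against 14 in the heterozygotes of the AP-2εCre and OMPCre lines, 155 against 31 between the lines' controls, 17 against 0 for the difference of effects and 196 against 18 for the average effect. Signs of some values changed. Against flox controls alone, AP-2εCre cKO gave a log2 fold change of -0.0149 for Fabp7 and 0.13 for S100b, and against heterozygotes alone -0.0359 for Ngfr. Against heterozygotes alone, OMPCre cKO gave 0.25 for Fabp7, -0.17 for Frzb and 0.000667 for Sox10, and with length-scaled TPM -0.49 for Frzb; the cause was not tested. Leaving out a library at a time also changed signs: in AP-2εCre cKO Ngfr from -0.0367 to 0.0883, Fabp7 from -0.309 to 0.241, S100b from -0.601 to 0.00864, Mbp from -0.131 to 0.0241 and in OMPCre cKO Fabp7 from -0.305 to 0.21, Frzb from -0.0986 to 0.146, Sox10 from -0.156 to 0.061, S100b from -0.0437 to 0.556. Sox10 in AP-2εCre cKO (-0.47 to -0.32), Mbp in OMPCre cKO (-0.32 to -0.25) and Npy in the difference of effects (1.65 to 2.58) kept theirs. Chosen after the data were seen, leaving out OMPCre flox control 3 turned Fa2h in OMPCre cKO from -4.46 to 0.189.

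Replicate numbers went with shared deviations in the OMPCre line but not in the AP-2εCre line. Same-numbered libraries deviated together with r over 0.1 in 2 of 9 pairs of the AP-2εCre line (-0.308 to 0.192, median -0.12). In the OMPCre line 7 of 9 pairs did (0.0218 to 0.523, median 0.233). Pairs of unlike number had medians of 0.0695 and -0.17, and 2 and 7 of 9 libraries correlated best with their own number. The main tests treated libraries as unpaired in both lines, which limits the p-values of the OMPCre line. With the replicate block 0 of the 8 members were called in any comparison, and over all genes 2, 0, 3, 7, 13, 0 and 28 were, in the order of comparisons above. The depth limits Npy, at 12 to 132 counts, more than the other members, and with 3 libraries a group a missed threshold does not show equal levels.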
